A study of Mus musculus with 12 samples.

Results

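Untreated ears of mice without cannabinoid receptors were compared with untreated ears of wild-type mice, as 3 arrays against 3 among the 12 arrays measured. The arrays were chosen by their labels: the control ears of Cnr1-/-/Cnr2-/- females and the control ears of females labelled C57BL/6J, with the genotype Cnr1+/+/Cnr2+/+. All mice were 8 to 10 weeks old and were sensitized to the contact allergen 1-fluoro-2,4-dinitrobenzene (DNFB), by 50 µl at 0.2% on the shaved abdomen on 2 consecutive days. On day 5 the right ear received DNFB at 0.3% in 10 µl, and whole ears were taken 48 h after what the labels call the second challenge. A control ear is therefore the unpainted left ear of a sensitized mouse whose right ear was challenged, not the ear of a naive mouse, and ears of such mice were not measured here. Each array holds the RNA of 1 ear of 1 mouse on an Affymetrix Mouse430_2 chip, and values are the deposited linear intensities or their log2. The genetic background of the knockout mice and how many backcrosses they had are not given in the sources used here, so genotype and background cannot be told apart.

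Cnr1 and Cnr2 are G protein-coupled receptors for the lipid messengers anandamide and 2-arachidonoylglycerol. In skin, Cnr1 is known from sensory nerves, keratinocytes and hair follicles, and Cnr2 mainly from immune cells. Contact hypersensitivity is a T cell response of sensitized skin to a small reactive chemical such as DNFB, which binds to proteins of the skin.

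On the control ear arrays, 58.3% to 61.5% of all probe sets were at 16 or above, and the medians were 25.8 to 30.1. Across probe sets, pairs of wild-type control arrays correlated at r = 0.966 to 0.971, pairs of knockout control arrays at 0.962 to 0.965, and pairs across genotypes at 0.957 to 0.965. RNA quality was read from the Actb control probe sets, whose 3' signal exceeded the 5' signal by 0.655 ± 0.0682 log2 units (mean ± SD of 3 arrays) in wild-type and 0.483 ± 0.0202 in knockout control ears, and these groups do not overlap. For Gapdh this difference was -0.396 ± 0.0828 and -0.38 ± 0.056. By the instrument records, the wild-type control arrays were washed in run 1, knockout control arrays 1 and 2 in run 2, and knockout control array 3 in run 3. No run held control ears of both genotypes, so there is no value within a run, and genotype and run cannot be told apart in the control ears. The part of RNA quality and run in the results below was not tested. Fits with run as a block are given, but none compares the genotypes in control ears within a run.

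The targeted genes were near or below an intensity of 16 in both genotypes. The tested probe set of Cnr1 read 9.29, 17.0 and 6.04 in wild-type control ears and 13.7, 11.2 and 8.54 in knockout control ears, a log2 difference (knockout minus wild type) of 0.15 ± 0.53 (SE, adjusted p = 0.941). Cnr2 read 12.3, 18.1 and 7.84 against 21.3, 9.85 and 10.2, a log2 difference of 0.10 ± 0.38 (adjusted p = 0.948). The groups overlap for both genes. A second probe set of Cnr1, too dim to be tested, read 10.8 to 14.9 in wild-type and 9.01 to 11.4 in knockout control ears. The sources used here do not say whether these probes lie in the deleted parts of the genes, and with levels this low they check nothing about the genotype labels.

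Few probe sets passed in the test of genotype in unchallenged ears, and probe sets that did not pass may differ too. Of 29460 probe sets tested, 44 (0.149%) passed the threshold, an adjusted p under 0.05 in limma with Benjamini-Hochberg adjustment. Of these, 24 were higher in knockout ears (0.0815%) and 20 lower (0.0679%), and 18 and 16 of them differed at least 2-fold when group means below 16 are set to 16. In all 44 the 3 and 3 arrays did not overlap, as was so for 7.62% of all probe sets on the higher side and 10.7% on the lower. Counted by gene, with the brightest tested probe set standing for each, 20 of 13383 genes passed (0.149%), 11 of them higher in knockout ears (0.0822%) and 9 lower (0.0672%). For scale, 1311 genes (9.8%) had an unadjusted p under 0.05, and the 3 and 3 arrays did not overlap for 1251 genes higher in knockout ears (9.35%) and 1176 lower (8.79%). The median log2 difference was -0.000858 over all genes tested and -0.0388 over all probe sets. Single arrays move these counts: without knockout control array 1, 206 probe sets passed, with 26 genes higher and 26 lower, while without knockout control array 2 the count was 25 probe sets, with 3 genes higher. The number of higher genes was also 5 without wild-type control array 1, 7 without wild-type control array 2 and 5 without knockout control array 3. The number of lower genes was 4 without wild-type control array 2 and 5 without wild-type DNFB array 1. With washing run as a fixed block, 4 probe sets passed. In that fit, knockout control arrays 1 and 2 are set against the wild-type control arrays, and knockout control array 3 has no weight. The step between runs 1 and 2 comes from wild-type DNFB arrays 2 and 3 against array 1 alone. None of the 19 genes described below kept its call there, and all kept their direction. With the run step resting on so few arrays, neither outcome decides the part of run.

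**Figure D1:**
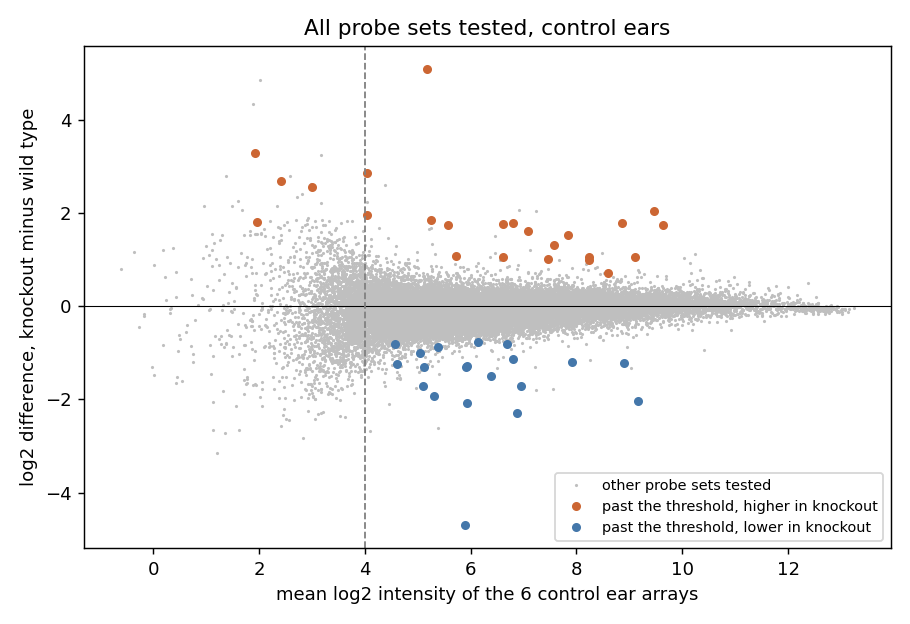
Log2 difference between knockout and wild-type control ears (vertical axis, log2 units) against the mean log2 intensity of the 6 control arrays (horizontal axis, log2 units) for all 29460 probe sets tested; the dashed line marks an intensity of 16. The 24 probe sets past the threshold that were higher in knockout ears are orange and the 20 lower ones blue, and the dim probe sets left of the line spread most.

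The promoters of 3 of these genes are shown because they had the largest difference upward (Mmrn1), the largest difference upward with both groups above an intensity of 16 (Cyp1a1), and the deepest decrease of any probe set that passed (Paqr7). The sequences are those of RefSeq on GRCm38.p6, from 250 bases before to 50 after a gene's start, all on the plus strand: chr6:60944067-60944366 for Mmrn1, chr9:57697363-57697662 for Cyp1a1 and chr4:134496511-134496810 for Paqr7, for which 2 starts are listed and the first was taken. Capitals mark matches, on either strand, to the TATA box TATAAA, the CCAAT box CCAAT, the GC box GGGCGG or the core of the xenobiotic response element GCGTG, which binds the aryl hydrocarbon receptor.
Mmrn1: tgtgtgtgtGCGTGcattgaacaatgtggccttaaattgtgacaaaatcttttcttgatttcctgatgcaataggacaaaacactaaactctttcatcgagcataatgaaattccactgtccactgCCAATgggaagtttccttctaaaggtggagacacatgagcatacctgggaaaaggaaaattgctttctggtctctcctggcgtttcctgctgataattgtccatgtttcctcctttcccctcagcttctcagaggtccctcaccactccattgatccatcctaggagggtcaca
Cyp1a1: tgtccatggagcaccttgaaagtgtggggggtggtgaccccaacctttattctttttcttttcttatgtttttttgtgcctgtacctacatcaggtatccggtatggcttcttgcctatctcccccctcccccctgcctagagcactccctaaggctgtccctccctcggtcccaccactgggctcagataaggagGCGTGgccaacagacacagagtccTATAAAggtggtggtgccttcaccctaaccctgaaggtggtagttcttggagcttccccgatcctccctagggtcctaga
Paqr7: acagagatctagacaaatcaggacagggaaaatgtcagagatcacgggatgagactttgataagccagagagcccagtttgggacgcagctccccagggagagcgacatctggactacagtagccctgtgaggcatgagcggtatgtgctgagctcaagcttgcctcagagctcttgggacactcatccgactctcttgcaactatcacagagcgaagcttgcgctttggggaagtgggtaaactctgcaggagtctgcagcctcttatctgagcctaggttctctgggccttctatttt
Mmrn1 holds 1 CCAAT box and 1 GCGTG core, Cyp1a1 holds 1 TATA box and 1 GCGTG core, and none of the 4 motifs was found in the Paqr7 window. No matches overlap in these 3 windows. Of 27025 promoters of this length, 14.2% hold TATAAA, 37.9% CCAAT, 35.9% GGGCGG and 32.5% GCGTG. Among the 13 of the 19 described genes with a listed promoter, 2 hold TATAAA, 3 CCAAT, 9 GGGCGG and 7 GCGTG. A match is a description of the letters and not a site of binding.

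Mmrn1 had the largest difference of any gene tested that passed the threshold. It encodes multimerin 1, a large protein stored in platelets and endothelial cells that binds coagulation factor V. It read 8.95, 8.37 and 3.12 in wild-type control ears and 185, 187 and 266 in knockout control ears. Every wild-type array was below 16 and every knockout array far above it, a difference of at least 13.1-fold (log2 5.09 ± 0.51, adjusted p = 0.00319). The call held in 23 of 24 alternatives and was lost with the fixed run block (log2 4.14, adjusted p = 0.627). For every gene, some alternatives leave the control ear log2 difference unchanged and alter only its SE or adjusted p. Leaving out a DNFB array and the replicate block are among them, so counts of alternatives do not show how often the difference itself was challenged. In whole ears, a change in the number of cells that carry a transcript and a change in transcript per cell cannot be told apart, for this gene or any below.

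Cyp1a1, Hacl1, Degs2 and Hilpda were among the genes higher in knockout control ears, and are put together here for description only. Cyp1a1, a cytochrome P450 that oxidizes foreign compounds and is induced through the aryl hydrocarbon receptor, read 49.5, 57.4 and 75.6 in wild-type and 139, 232 and 278 in knockout ears. The groups do not overlap, and the level was 3.47-fold higher (log2 1.79 ± 0.25, adjusted p = 0.0243). Hacl1, a peroxisomal lyase that shortens 2-hydroxy and branched fatty acids, read 209, 275 and 269 against 759, 908 and 919. It was 3.45-fold higher (log2 1.79 ± 0.22, adjusted p = 0.0125), with the lowest knockout array above every wild-type array. Degs2, which hydroxylates and desaturates sphingolipids on the way to the phytoceramides of the epidermal barrier, read 51.3, 58.4 and 49.5 against 135, 193 and 221. Its level was 3.38-fold higher (log2 1.76 ± 0.21, adjusted p = 0.0104). Hilpda, a lipid droplet protein that is induced by hypoxia and restrains lipolysis, read 65.0, 73.3 and 97.8 against 164, 289 and 280. Its groups are separate too, at 3.05-fold (log2 1.61 ± 0.23, adjusted p = 0.0257). Of these 4, Hilpda lost its call in 11 of 24 alternatives, Cyp1a1 in 7, Hacl1 in 5 and Degs2 in 4.

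A protease, a phosphatase and a phosphodiesterase were also higher. Klk6, a secreted serine protease of the kallikrein family, read 137, 171 and 105 in wild-type and 341, 436 and 393 in knockout control ears, 2.88-fold higher (log2 1.52 ± 0.19, adjusted p = 0.0114). Lhpp, a phosphatase that acts on phosphohistidine and pyrophosphate, read 99.5, 134 and 136 against 249.6, 367 and 299.7, 2.47-fold higher (log2 1.31 ± 0.18, adjusted p = 0.023). Pde1b, a calmodulin-dependent phosphodiesterase that breaks down cyclic nucleotides, read 63.3, 65.3 and 76.5 against 134, 146 and 144, 2.07-fold higher (log2 1.05 ± 0.11, adjusted p = 0.0058). In all 3 the groups are separate, and the Pde1b arrays lie closest together. Pde1b kept its call in 22 of 24 alternatives, Klk6 in 19 and Lhpp in 14.

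The remaining higher genes were dim. Ly6i, a member of the Ly6 family of lipid-anchored surface proteins, read 5.57, 3.10 and 2.07 in wild-type and 19.7, 19.3 and 19.5 in knockout ears. All wild-type arrays were below 16, so the difference is at least 1.22-fold (fitted log2 2.57 ± 0.32, adjusted p = 0.0125). Slco1a5, a transporter of organic anions, passed the threshold (fitted log2 1.81 ± 0.14, adjusted p = 0.000896) at 1.88 to 2.25 in wild-type and 6.54 to 8.47 in knockout ears. Both of its groups were below 16, so no fold is given, and it entered the test through the DNFB ears. Slco1a5 lost its call with a trended and robust variance (adjusted p = 0.156), with the fixed run block (0.19) and with a pseudocount of 16 (0.15), where its log2 difference was 0.37. Gm9706 completes the 11 higher genes and is named here although the naming rule leaves out locus names. Its group means were 1.22 and 11.9, with 1 knockout array above 16, and no fold is given. Gm9706 too entered the test through the DNFB ears, and its probe set is of a kind that can bind related sequences. Ly6i, Klk6 and Slco1a5 belong to families of close relatives that can share probes, so which member was measured is uncertain.

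**Figure D2:**
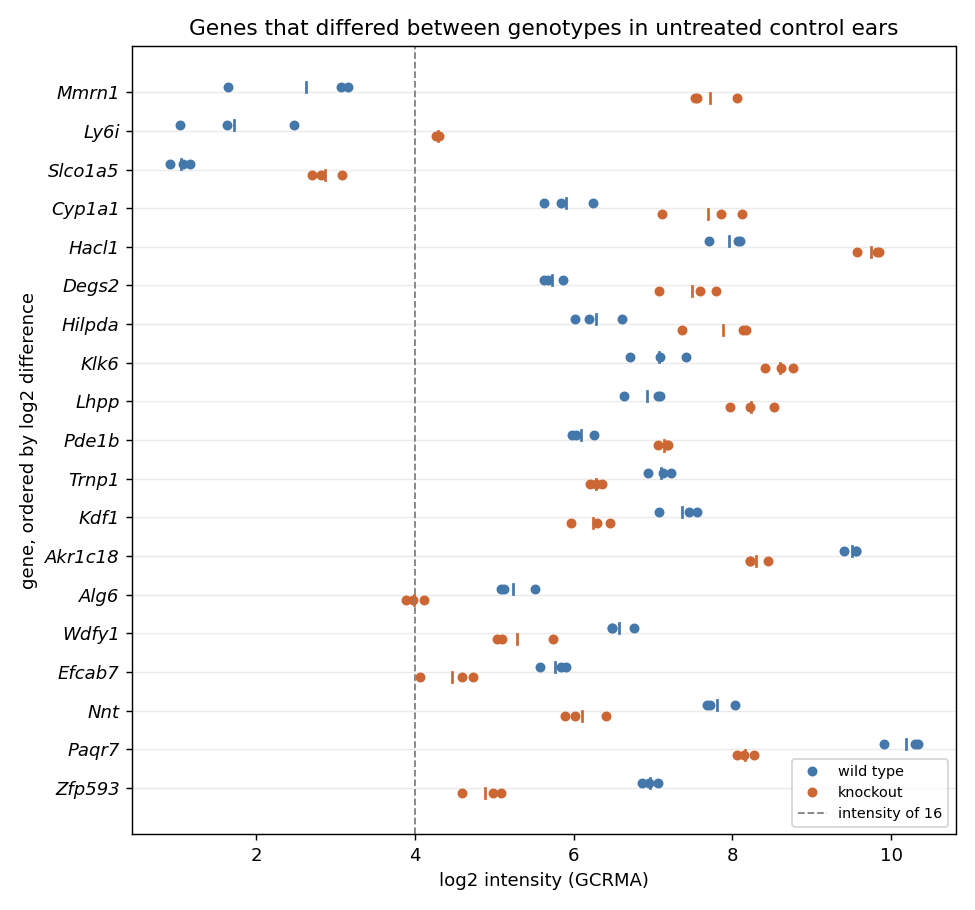
Log2 intensity (horizontal axis) of the 19 named genes that passed the threshold, one row a gene, in the 3 wild-type (blue) and 3 knockout (orange) control ears; points are arrays, short bars are means and the dashed line is an intensity of 16. The groups are separate in every row, from 5.09 log2 units in Mmrn1 to -2.07 in Zfp593, and Slco1a5 lies left of the line in both genotypes.

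The deepest decreases among the genes lower in knockout control ears were those of Paqr7 and Zfp593. Paqr7, a membrane receptor for progestins, read 1258, 1295 and 960.3 in wild-type and 267, 308 and 283 in knockout ears, 4.06-fold lower (log2 -2.02 ± 0.26, adjusted p = 0.0144). Its other tested probe set read 354, 358 and 221 against 11.0, 15.2 and 9.56, at least 19.0-fold lower (log2 -4.70 ± 0.22, adjusted p = 2.91e-05). Both probe sets were thus lower, and the dimmer one fell below 16 on every knockout array. Zfp593, a zinc finger protein, read 124, 133 and 117 against 24.1, 34.0 and 31.7, 4.20-fold lower (log2 -2.07 ± 0.17, adjusted p = 0.000896). This probe set, 1447703_x_at, is of a kind that can bind related sequences. The second tested probe set of Zfp593 did not differ, with means of 24.1 and 25.9 (adjusted p = 0.925), and with the median of the probe sets the call was lost. Akr1c18, a steroid dehydrogenase that inactivates progesterone and has close relatives in its family, read 679, 754 and 751 against 349, 298 and 297. It was 2.32-fold lower with groups far apart (log2 -1.21 ± 0.10, adjusted p = 0.000896).

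Nnt, the mitochondrial transhydrogenase that makes NADPH, read 210.5, 205 and 262 in wild-type and 64.7, 85.0 and 59.2 in knockout ears, 3.26-fold lower (log2 -1.71 ± 0.17, adjusted p = 0.00377). Its second tested probe set read 284, 269 and 235 against 47.5, 61.4 and 51.9, 4.92-fold lower (log2 -2.30 ± 0.21, adjusted p = 0.00195). That probe set, 1456573_x_at, is of a kind that can bind related sequences. No knockout array of either probe set came near a wild-type one. Wdfy1, an endosomal protein that takes part in Toll-like receptor signalling, read 108, 89.8 and 89.2 against 34.3, 53.5 and 32.8, 2.43-fold lower (log2 -1.28 ± 0.20, adjusted p = 0.0462). Of its 4 tested probe sets 3 passed, all lower, the others by log2 -1.93 ± 0.24 and -1.30 ± 0.12, while the fourth and dimmest overlapped between the groups. The representative probe set of Wdfy1 lost its call in 16 of 24 alternatives. The probe set with the lowest adjusted p read 91.9, 112 and 81.7 against 37.3, 38.8 and 38.4 (adjusted p = 0.00199 in limma). Its call was not followed in the alternatives.

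The remaining lower genes lie, as do Paqr7 and Zfp593, on chromosome 4. Efcab7, a calcium-binding protein of the primary cilium that promotes Hedgehog signalling, read 47.8, 59.6 and 57.1 in wild-type and 26.7, 16.8 and 24.2 in knockout ears, 2.47-fold lower (log2 -1.30 ± 0.19, adjusted p = 0.028). Alg6, a glucosyltransferase that builds the precursor of N-linked glycans, read 33.9, 34.7 and 45.8 against 14.8, 15.8 and 17.3, 2.37-fold lower (log2 -1.25 ± 0.14, adjusted p = 0.00604). Its knockout arrays were at the edge of detection. Kdf1, which restrains the proliferation of epidermal progenitors and promotes their differentiation, read 176, 188 and 135 against 62.7, 87.6 and 78.2, 2.18-fold lower (log2 -1.13 ± 0.18, adjusted p = 0.0487). A second Kdf1 probe set did not pass, with means of 63.2 and 62.0 (log2 -0.03 ± 0.14, adjusted p = 0.961). Trnp1, a nuclear protein known from the control of neural progenitors, read 139.9, 149.9 and 123 against 81.8, 74.0 and 77.5, 1.77-fold lower (log2 -0.82 ± 0.12, adjusted p = 0.0409). Kdf1 lost its call in 17 of 24 alternatives, Trnp1 in 14 and Efcab7 in 10 of 23.

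A further 4 genes passed only through a probe set that is not their brightest, and were named after their values were seen. Lox, which crosslinks collagen and elastin, had means of 303 in wild-type and 494 in knockout ears on 1 probe set (log2 0.71 ± 0.10, adjusted p = 0.0188). Its brighter probe set had means of 376 and 566 and narrowly missed the threshold (log2 0.59 ± 0.09, adjusted p = 0.0514). Cul2, a scaffold of ubiquitin ligases, was lower by one probe set, 56.5 against 30.7 (log2 -0.88 ± 0.11, adjusted p = 0.0145), while its brighter one did not pass at 239.7 against 219 (adjusted p = 0.742). Exosc4, an exosome subunit, passed on a dim probe set that can bind related sequences, whereas its other 2 tested probe sets had log2 differences of 0.13 and -0.02 and did not pass. Cd160, a receptor of cytotoxic lymphocytes, passed at 2.10 against 13.4, both below 16, and its brighter probe set overlapped between the groups. The Cd160 probe set that passed entered the test through the DNFB ears.

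Another 16 of the 44 probe sets could not be given to 1 gene: 7 are annotated to several genes and 9 to none in the table used here. Of these, 10 were higher and 6 lower in knockout ears. The clearest was 1452590_a_at, assigned to several genes, at 349.5, 332 and 367 in wild-type and 1224, 1582 and 1506 in knockout control ears, 4.09-fold higher (log2 2.03 ± 0.11, adjusted p = 6.6e-05). Also annotated to several genes, 1428738_a_at had means of 433 and 1450 (log2 1.74 ± 0.12, adjusted p = 0.000337). Probe set 1440862_at, with no gene here, was below 16 in all wild-type arrays and read 59.9, 45.2 and 31.4 in the knockout, at least 2.75-fold higher (log2 2.85 ± 0.32, adjusted p = 0.00739). Of the 16, 11 also passed in the DNFB ears.

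Substrains of C57BL/6 differ at a few known genes, and 3 of the 20 genes that passed belong to a list of 13 such genes and strain markers, of which 10 could be tested. As background, C57BL/6J carries a deletion within Nnt, and a C57BL/6 substrain of another supplier lacks Mmrn1. The Nnt status of the substrain that lacks Mmrn1 was not considered here. In these data the lower Nnt level was that of the knockout ears and the Mmrn1 level below 16 that of the ears labelled C57BL/6J, so Nnt goes against the direction that the label alone would give. Where the Nnt probes lie relative to that deletion is not given in the sources used here. The list was chosen with earlier results of these data known, so its count is no independent evidence. The other 7 tested members did not pass. Their log2 differences were 0.59 for Il3ra, 0.23 for Nlrp12, 0.10 for Ide, -0.04 for Plcb1, -0.05 for Cyfip2, -0.44 for Crb1 and -0.96 for Adam11 (adjusted p from 0.481 to 0.955). For Adam11 the 3 and 3 arrays did not overlap, at 16.2 to 25.4 against 9.55 to 13.4. The part of strain background in any result here was not tested.

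Cnr1 and Cnr2 both lie on chromosome 4, where 6 of 804 tested genes passed (0.746%), all lower in knockout ears, against 14 of 12525 on the other chromosomes (0.112%). Among the 50 tested genes on each side of Cnr2, in the order of the RefSeq annotation, 4 of 100 passed (4.0%): Paqr7 at 20 places from Cnr2, Zfp593 at 27, Kdf1 at 42 and Trnp1 at 43, all on the same side. Kdf1 and Trnp1 are direct neighbours in that order. Among the 100 tested genes nearest to Cnr1 none passed in limma, 14 had an unadjusted p under 0.05 (9.8% of all genes), and groups did not overlap for 16 lower genes (8.79% of all) and 5 higher ones (9.35% of all). On the rest of the chromosome 2 of 602 passed (0.332%). These 2, Alg6 and Efcab7, are 2 places apart, 311 and 309 places from Cnr2 and 217 and 219 from Cnr1. Nearest to Cnr2, Pnrc2, the next tested gene, had means of 539 and 354 (log2 -0.61 ± 0.12, adjusted p = 0.131), and Pithd1, 3 places to the other side, means of 313 and 194 (log2 -0.69 ± 0.13, adjusted p = 0.112). Both had separate groups without passing. Cep85, 29 places from Cnr2, had means of 53.4 and 28.7 (log2 -0.90 ± 0.18, adjusted p = 0.116) and passed in the DNFB ears (log2 -1.25, adjusted p = 0.0373). The kinase gene Map3k6, at 48 places, was on the higher side, with means of 57.4 and 119.5 (log2 1.06 ± 0.19, adjusted p = 0.0788). These 4 neighbours were named after their values were seen. Over all 100 genes near Cnr2, 15 higher and 15 lower genes had groups that do not overlap, beside 9.35% and 8.79% of all genes, while at an unadjusted p under 0.05 there were 3 higher and 13 lower genes. The count near Cnr2 fell to 2 with arrays centred on their medians and to 1 without wild-type control array 1 or 2 or knockout control array 2 or 3. It was 2 without wild-type DNFB array 1, 2 or 3 or knockout DNFB array 2. Whether the DNA around the targeted genes comes from another strain was not tested.

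**Figure D3:**
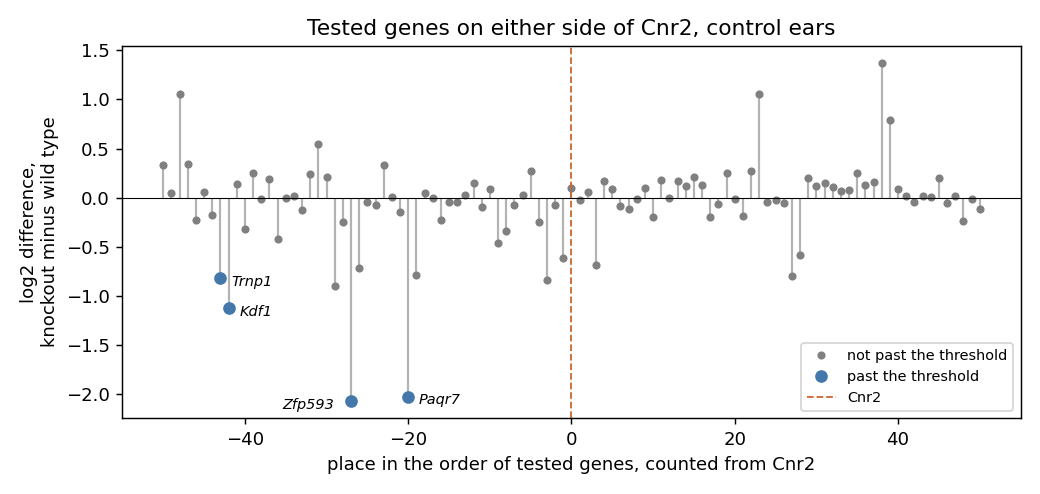
Log2 difference between knockout and wild-type control ears (vertical axis, log2 units) of the 50 tested genes on each side of Cnr2, in gene order along chromosome 4 (horizontal axis, places counted from Cnr2, dashed line). The 4 genes past the threshold are blue, all on one side and all lower, down to -2.07 for Zfp593 and -2.02 for Paqr7.

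Few list members passed in unchallenged ears. Of 656 tested members of 42 lists, 4 passed (0.61%, beside 0.149% of all genes): Cyp1a1 and the substrain genes Mmrn1, Nnt and Wdfy1, and the other 16 genes that passed are in no list. The number of members that passed was 2 without wild-type control array 1 or 2. Each list is described by its counts and its median beside those of all genes, with no test of the list. In the endocannabinoid list, of 16 tested ligand-making enzymes, ligand-degrading enzymes and receptors, none passed in limma and 3 had an unadjusted p under 0.05 (median log2 0.117, with separate groups for 1 gene in each direction). The larger of these 2 differences was that of Mgll, which degrades 2-arachidonoylglycerol, at 2057, 2100 and 2012 in wild-type and 2514, 3330 and 3003 in knockout ears, separate groups that did not pass (log2 0.51 ± 0.19, adjusted p = 0.344). Over all 16 tested members, log2 differences ran from -1.522 to 0.511, so the largest of the list was a decrease. The summed level of the list was 4092 to 4306 in wild-type and 4661 to 5786 in knockout ears. Mgll alone makes up a large part of this sum, at 2012 to 2100 and 2514 to 3330.

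No immune gene of the lists passed in the control ears by limma. For comparison, 9.8% of all genes had an unadjusted p under 0.05, and groups were separate for 9.35% on the higher and 8.79% on the lower side. Of 31 chemokines 3 had such a p (median log2 0.079, with separate groups for 2 higher and 5 lower genes), as had 2 of 23 cytokines and receptors (median -0.036) and 4 of 24 interferon-induced genes (median 0.045). Among the 202 genes of the 19 lists of cell type markers no member passed and 24 had an unadjusted p under 0.05, and the medians of the 11 lists with at least 10 tested genes lay between -0.04 and 0.181. Summed levels were separate between the genotypes for 2 of these lists, dendritic and Langerhans cells (1760 to 1915 in wild-type against 2065 to 2117 in knockout ears) and erythroid cells, with 1 tested gene. Keratinocyte markers summed to 36780 to 40730 and 37150 to 37730, skeletal muscle markers to 28590 to 37920 and 29170 to 35100, and cartilage markers to 5039 to 5978 and 4411 to 6289. These tissues of the external ear were thus present on all 6 arrays, with overlapping sums, which follow the brightest members. By member, 1 of 9 keratinocyte markers was above 0 (median -0.108), and 2 lower and 1 higher had separate groups. Of 24 skeletal muscle markers (median 0.035) 4 lower and 1 higher had separate groups, and of 18 cartilage markers (median 0.082) 1 in each direction.

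Sterol genes lay mostly above 0 without passing. Of 18 tested genes of cholesterol synthesis and uptake, 17 had a log2 difference above 0 and 10 had separate groups on the higher side (9.35% of all genes had), with a median of 0.298, the highest of the lists with at least 10 tested genes (0.164 with the fixed run block). None passed in limma, and 11 had an unadjusted p under 0.05, all higher, beside 9.8% of all genes. Lss, which closes squalene epoxide to lanosterol, came nearest at 200.1, 242 and 247 in wild-type and 348, 408 and 423 in knockout ears (log2 0.78 ± 0.13, adjusted p = 0.0575). Sqle, which makes that epoxide, read 764, 844 and 835 against 1009, 1082 and 1220 (log2 0.44 ± 0.12, adjusted p = 0.233), and Fdps, an enzyme of the mevalonate pathway, 1218, 1274 and 1196 against 1588, 1647 and 1752 (log2 0.43 ± 0.12, adjusted p = 0.23). The summed levels were separate, 13120 to 14690 against 15660 to 18450. In DNFB ears the median of the list was -0.20. Among 18 sebaceous gland and fatty acid synthesis genes the median was 0.103, 6 higher and 1 lower gene had separate groups, and Elovl3, which elongates fatty acids in sebaceous glands, read 744, 893 and 840.2 against 1455, 1979 and 2025 (log2 1.13 ± 0.22, adjusted p = 0.112). These genes, and those of the next paragraph, were named after their values were seen.

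Some matrix genes had separate groups on the higher side and some cell cycle genes on the lower, beside 9.35% and 8.79% of all genes, and no member passed in limma by its representative probe set. At an unadjusted p under 0.05 (9.8% of all genes) there were 10 matrix genes, all higher, and 8 cell cycle genes, all lower. Of 30 collagens and matrix enzymes, 18 had a log2 difference above 0, and 10 had separate groups on the higher side and none on the lower (median 0.172, and 0.306 with the fixed run block), Lox (adjusted p = 0.0514) and Col1a1 among them. Col1a1, the main chain of type I collagen, read 1477, 1287 and 1339 in wild-type and 2429, 1947 and 1765 in knockout ears (log2 0.57 ± 0.13, adjusted p = 0.179). Of 29 cell cycle genes, 7 had separate groups on the lower side and none on the higher (median -0.251). Top2a, the topoisomerase of dividing cells, read 189, 197 and 239 against 165, 95.2 and 149 (log2 -0.64 ± 0.19, adjusted p = 0.259), and Cdc6, which licenses replication origins, 30.5, 29.2 and 25.5 against 16.5, 18.9 and 21.1 (log2 -0.59 ± 0.13, adjusted p = 0.156). In DNFB ears the medians were 0.332 and 0.196, and Lox passed (log2 0.65, adjusted p = 0.0384). Hair keratin and follicle genes had the lowest median of the longer lists, -0.424 over 32 genes, with 2 lower and 1 higher gene in separate groups, and their level was low and uneven (summed 639 to 819 in wild-type and 547 to 618 in knockout ears). Of 27 genes of epidermal differentiation and barrier, 7 had separate groups on the higher side and none on the lower, around a median of -0.038 that was 0.045 with arrays centred on their medians and 0.027 with the median of a gene's probe sets.

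In the list of aryl hydrocarbon receptor and retinoid genes, 1 of 17 tested members passed, Cyp1a1. The median was 0.009, and 2 higher and 4 lower genes had separate groups. Other known targets of that receptor gave log2 differences of -0.29 (Cyp1b1), -0.23 (Tiparp) and -0.33 (Ahrr), and the receptor gene Ahr itself 0.17, none past the threshold (adjusted p from 0.516 to 0.669).

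**Figure D4:**
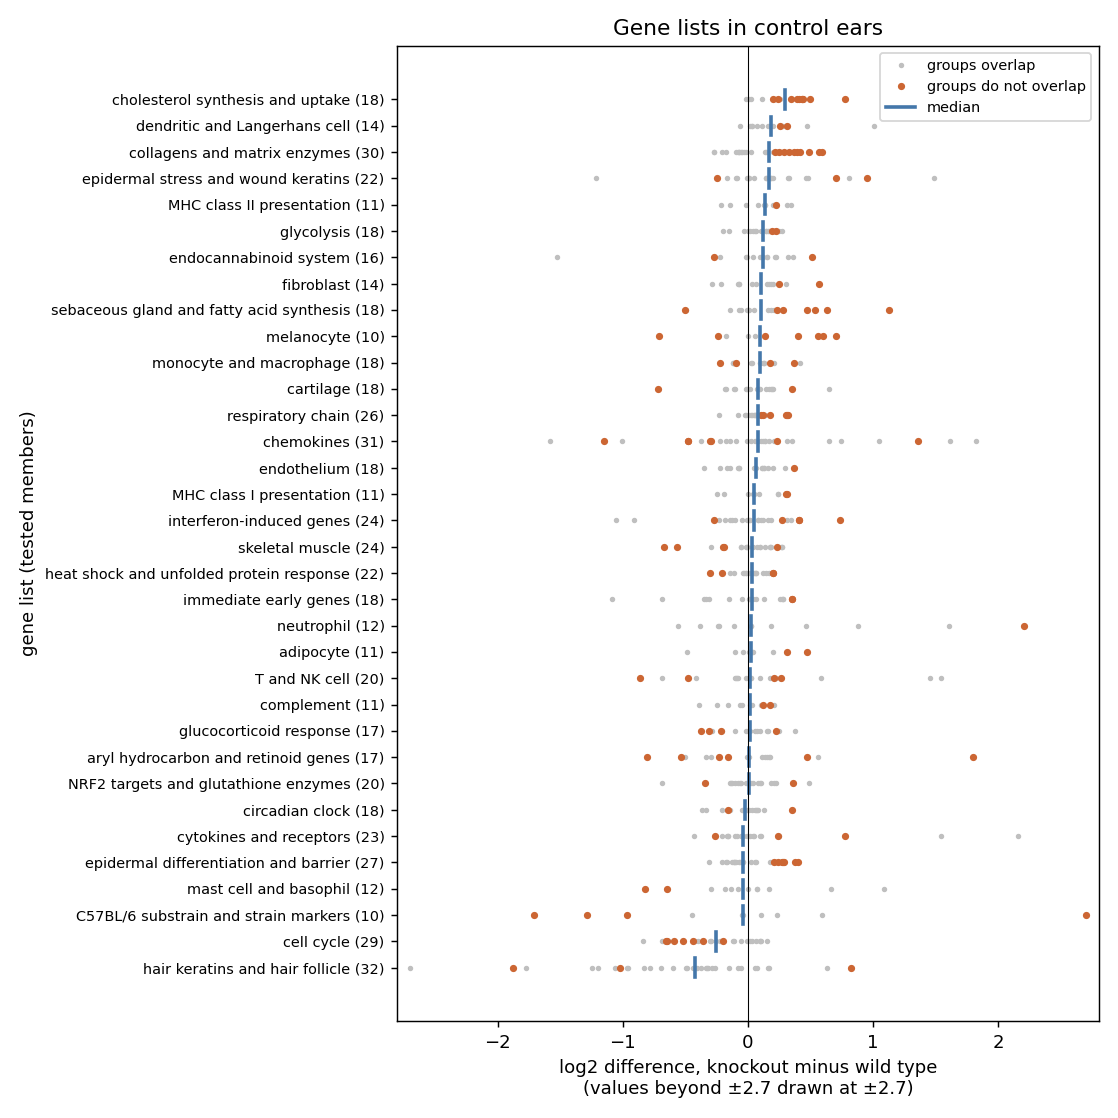
Log2 difference between knockout and wild-type control ears (horizontal axis, log2 units) of every tested member of the 34 lists with at least 10 tested genes (rows, number of members in brackets); orange points are genes whose 3 and 3 arrays do not overlap, grey points the others, and blue bars are list medians. Medians run from -0.424 for hair keratins to 0.298 for cholesterol synthesis, and Mmrn1, at 5.09, is drawn at the edge.

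The challenged right ears of the same 6 mice give the same genotype contrast on other arrays. Wild-type DNFB array 1 was washed in run 1, arrays 2 and 3 in run 2, and all knockout DNFB arrays in run 3. No run held DNFB ears of both genotypes, so genotype and run cannot be told apart there either. Both contrasts also share mice and a pooled estimate of the spread, so the second is no independent check. There 35 probe sets (0.119%) and 9 genes (0.0672%) passed. The count of probe sets was 34 without knockout DNFB array 1 and 12 to 23 without any other single array. The overlap with the control ears, in the same direction, was 20 probe sets, 45.5% of those of the control ears and 57.1% of those of the DNFB ears. It was 5 genes, 25% and 55.6% of the respective lists, and none passed in opposite directions. These 5 were Mmrn1 on the higher side and Zfp593, Nnt, Efcab7 and Wdfy1 on the lower. Mmrn1 read 3.40, 3.06 and 11.1 in wild-type and 103, 88.2 and 117 in knockout DNFB ears, at least 6.38-fold higher (fitted log2 4.39 ± 0.51, adjusted p = 0.0158). Zfp593 read 233, 255 and 281 against 44.6, 50.4 and 66.2 (log2 -2.27 ± 0.17, adjusted p = 0.000653), and Nnt 179, 129 and 173 against 60.9, 72.9 and 64.9 (log2 -1.26 ± 0.17, adjusted p = 0.0373). Efcab7 differed by log2 -1.31 ± 0.19 and Wdfy1 by -1.37 ± 0.20 (adjusted p = 0.0382 and 0.0384). In these 5 genes the groups are separate in both ears, though the share of all genes with separate groups in DNFB ears was not counted.

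Of the 11 higher genes, 10 did not pass in the DNFB ears. Cyp1a1 read 35.3, 48.8 and 44.7 in wild-type and 54.7, 46.9 and 47.3 in knockout DNFB ears (log2 0.22 ± 0.25, adjusted p = 0.821). Klk6 read 2777, 3789 and 3446 against 2419, 2949 and 2672, with groups that overlapped (log2 -0.31 ± 0.19, adjusted p = 0.645). Degs2 had means of 250.4 and 253 (log2 0.01 ± 0.21, adjusted p = 0.992), and Pde1b 83.8 and 82.7 (log2 -0.02 ± 0.11, adjusted p = 0.974). Hilpda stayed on the higher side with separate groups but did not pass. It read 67.3, 74.5 and 74.8 against 126, 111 and 93.5 (log2 0.60 ± 0.23, adjusted p = 0.454). Of the lower genes, Alg6 had means of 31.7 and 31.6 (log2 -0.01 ± 0.14, adjusted p = 0.993). Paqr7, Akr1c18, Kdf1 and Trnp1 stayed on the lower side with separate groups but did not pass (log2 -1.10, -0.57, -0.91 and -0.81). Without the share of all genes with separate groups in DNFB ears, such separation has no scale here. The second Paqr7 probe set did pass in the DNFB ears, at 49.0, 37.4 and 43.2 against 5.41, 4.62 and 5.56, at least 2.68-fold lower since every knockout array was below 16 (adjusted p = 0.000653).

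The difference between the 2 contrasts was itself tested, as an interaction over all 12 arrays. It passed for 1 probe set (0.00339%), that of Slco1a5 (fitted log2 -2.201 ± 0.20, adjusted p = 0.0164). Counted by gene this is 0.00747%. The count was 0 without wild-type control array 1 or 3, knockout control array 1 or 2, or knockout DNFB array 1. It was 2 without wild-type control array 2 or wild-type DNFB array 3, and 3 without wild-type DNFB array 1 or knockout DNFB array 2. This gene was below 16 in all control ears and at 17.5 to 28.5 in the DNFB ears, so the call sets a difference between values under that level against a measured one and gives no size of a change. Klk6 (log2 -1.83 ± 0.26), Degs2 (-1.75 ± 0.30) and Alg6 (1.24 ± 0.19) did not pass in the interaction, with adjusted p of 0.21, 0.311 and 0.224. Since the genes were selected by their control ear values, and these values enter the interaction, these differences are a description. For the 5 genes that passed in both ears the interaction was between -0.70 and 0.44 log2 units, with adjusted p from 0.837 to 0.998.

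**Figure D5:**
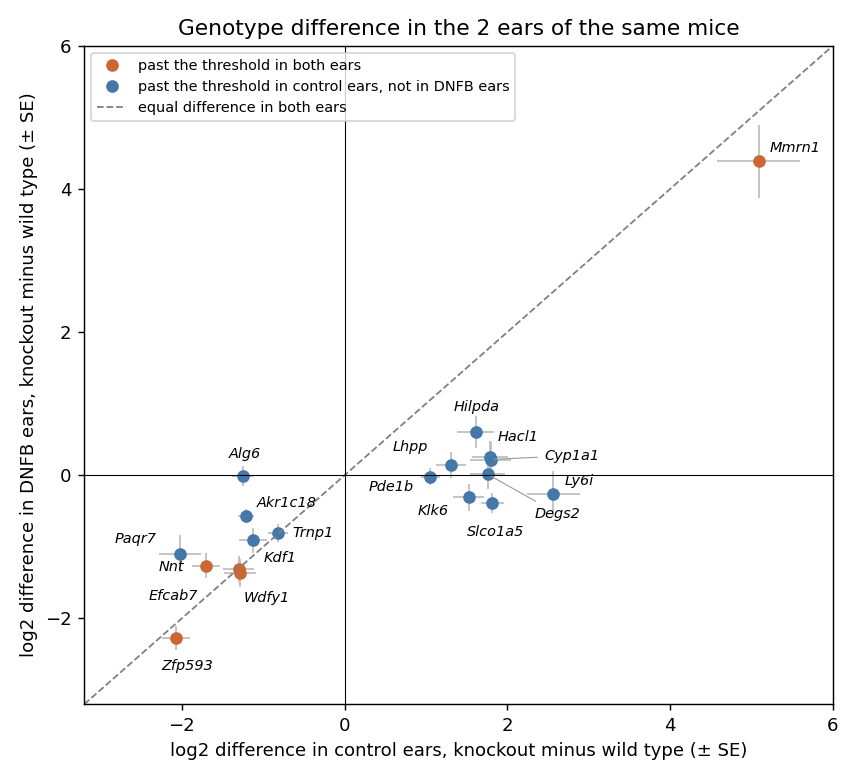
Log2 difference between knockout and wild type in DNFB ears (vertical axis) against that in control ears (horizontal axis), in log2 units with bars of 1 SE, for the 19 named genes that passed in control ears; the dashed line marks equal differences. The 5 genes that passed in both ears (orange) include Mmrn1 at 5.09 and 4.39, and the higher genes other than Mmrn1 lie between -0.39 and 0.60 on the vertical axis.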

How the data were processed

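The authors deposited 1 linear intensity per probe set and array, made with GCRMA per the submitters' processing notes; its version is not given in the sources used here. The values were read as linear and turned into log2 with no pseudocount. The instrument record deposited for each array (unit: other) contains no expression value, and the washing run was inferred from its hybridization times, with a new run after a gap of over 60 minutes.

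The table holds 45101 probe sets, of which 64 are Affymetrix controls, 34958 carry 1 gene symbol in the platform annotation, 932 several and 9211 none; the Entrez identifiers of 34754 matched RefSeq. A probe set was tested if it reached 16 in at least 3 of 12 arrays, which left 29460, and 13383 of 18194 genes. A gene stands on the brightest of its tested probe sets that name it alone, by mean log2 value.

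All 12 arrays entered 1 linear model with a coefficient for each group (limma 3.58.1, lmFit and eBayes, R 4.3.3), with Benjamini-Hochberg adjustment over all probe sets tested and a threshold of 0.05. Differences are log2 values of knockout minus wild type ± SE of the model, and means are means of log2 values turned back into intensities. Where a group lies below 16 on all 3 arrays, the fold is against 16. The fit was tested on simulated data. The named genes are the up to 15 highest and 15 lowest of the genes that passed with separate groups, leaving out locus names, with Cnr1, Cnr2, called list members, called genes near Cnr1 or Cnr2 and the substrain list. The comparison, the lists and the naming rule were chosen with earlier results of these data known. Gene order and chromosomes are those of RefSeq on GRCm38.p6. The labels number 3 mice per genotype, so replicates are mice, and 3 arrays per group limit the precision. The alternatives were other filters, array normalizations, a variance model, fewer arrays, washing run, mouse or replicate number as a block, another gene representative, a pseudocount of 16 and leaving out each array.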

Additional observations from a re-analysis of the deposited data

Results flagged for a closer look

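The genotype difference of Slco1a5, a transporter of organic anions, differed between the ears by the interaction test: the fitted log2 difference was 1.81 ± 0.14 in control ears and -0.39 ± 0.14 in DNFB ears, an interaction of -2.201 (SE 0.20, adjusted p = 0.0164). All 6 control arrays lie below an intensity of 16 and the gene entered the test through the DNFB ears, so the call rests on values under that level and no size of the difference is measured. Groups of 3 arrays were too small to look for single outlying arrays.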

How the results depend on the processing

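Counts are given for the control ears as probe sets, higher genes, lower genes, list members and genes near Cnr2 past the threshold (44, 11, 9, 4 and 4), then for DNFB ear probe sets (35) and the interaction (1), naming those that moved by over 1.5 times. Without a filter, 5 lower genes, 2 list members and 2 genes near Cnr2 passed, with 13 in DNFB ears and 0 in the interaction. At an intensity of 64 there were 79 probe sets, 29 higher genes, 9 list members and 0 in the interaction. Centring on medians, and the median of a gene's probe sets, each left 2 genes near Cnr2. A trended and robust variance gave 127, 45, 14, 12, 7, 92 and 4. With only the 6 arrays compared the values were 14, 3, 2, 1 and 2, and 7 in DNFB ears, at fewer degrees of freedom. Washing run as a fixed block gave 4, 0, 1, 0, 0, 3 and 2, with 1 gene near Cnr1 in place of 0, and as a random block (correlation -0.103) 128, 31, 21, 9, 8, 58 and 3. A pseudocount of 16 gave 94 probe sets, 27 higher and 14 lower genes and 9 list members. Quantile normalization and mouse as a random block moved none of these counts by over 1.5 times. The causes were not tested.

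The replicate numbers of the 2 genotypes name different mice and share only a number: the deviations of same-numbered control arrays correlated at 0.0595, -0.00522 and -0.0212. With the replicate block 2 genes near Cnr2, 16 probe sets in DNFB ears and 0 in the interaction passed, with 34 probe sets in control ears.

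Leaving out 1 array at a time gave 25 to 206 probe sets, 3 to 26 higher and 4 to 26 lower genes, 2 to 5 list members, 1 to 4 genes near Cnr2, 12 to 34 probe sets in DNFB ears and 0 to 3 in the interaction. No named gene that passed reversed in any alternative run, and calls among the 19 were kept by 0 with the fixed run block, 5 with the 6 arrays and 8 to 18 without 1 array. Where a group lies below 16, the size of a difference depends on the background correction, and no depth is known for intensities.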
